A study of Mus musculus with 99 samples.

Results

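The transcription factors followed here were 9 neural basic helix-loop-helix (bHLH) genes of the mouse, namely Neurog1, Neurog2, Neurog3, Neurod1, Neurod2, Atoh1, Olig1, Olig2 and Olig3. They were taken by name, with earlier results of these data known, from the 55341 gene names of an RNA-seq count table, and all 9 were found there. Their chromatin was read from the ChIP-seq peak lists of 12 antibodies, where a gene was said to have a peak if any listed peak lay within 2.5 kb of its annotated body.

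bHLH factors bind DNA as dimers, usually with a ubiquitous E-protein partner, at short sites called E-boxes. Proneural members such as Neurog1, Neurog2 and Atoh1 commit neural progenitors to a neuronal fate, the Neurod factors act later in neuronal differentiation, and Olig factors specify oligodendrocytes and several classes of spinal cord neurons. In embryonic stem cells (ESCs) genes of this kind are known to be held silent by Polycomb. Polycomb repressive complex 1 (PRC1) monoubiquitinates histone H2A (the mark H2AK119ub1) through RING1A or RING1B, and PRC2 trimethylates histone H3 (the mark H3K27me3).

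The study compared mouse ESCs that lose all RING1A and RING1B with ESCs that keep only a RING1B mutated at I53S, a change that removes its ubiquitin ligase activity. The Parental line was ROSA26::creERT2 RING1A-/-; RING1B fl/fl, so that all of its samples lacked RING1A and lost RING1B once 4-hydroxytamoxifen (OHT, 0.5 µM) activated Cre. Derivative lines, sub-cloned under selection, stably carried a 2xFlag-HA-tagged RING1B WT or RING1B I53S on a pCAG vector, and in some ChIP experiments these lines also lacked MTF2 (MTF2 KO, Cas9 clones). Eed fl/fl ESCs, also with creERT2 at ROSA26, lost EED, a core subunit of PRC2. All cells were grown in serum with LIF and inhibitors of GSK3β and MEK, and untreated samples (−OHT) received the ethanol vehicle. The treatment lasted 72 h, or 48 h where a sample title says so. The labels do not say which clone gave which sample.

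RNA-seq covered 8 groups of 2 libraries, that is −OHT and +OHT cells of the Parental, RING1B WT, RING1B I53S and Eed fl/fl lines. The libraries of the first 3 lines held 8140106 to 12743460 counts, and those of Eed fl/fl cells held 6957248 to 9443814. Levels are given as raw counts and as CPM, the counts scaled by library size after TMM normalization, and between genes only as CPM per kb of exon. With 2 libraries a group, and with nothing in the labels on separate clones, p-values measure the spread between these libraries. Fibroblast, primitive endoderm and trophoblast marker lists, described at the end, moved with OHT in the same libraries. In bulk RNA, fewer cells of a type and less RNA per cell cannot be told apart. As a check on the deletion, Rnf2 (which encodes RING1B) went from 228 ± 41.6 CPM (SD, n = 2) to 155 ± 16.1 CPM in Parental cells, where reads outside the deleted part were counted too, Ring1 was at 2.33 ± 0.503 and 1.29 ± 0.249 CPM in the same groups, and Eed was at 214 ± 58.3 CPM without and 55.4 ± 16.6 CPM with OHT in Eed fl/fl cells.

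The genes lie at chr13:56250478-56252163 (Neurog1, minus strand), chr3:127633135-127635631 (Neurog2, plus), chr10:62133090-62134763 (Neurog3, plus), chr2:79452521-79456751 (Neurod1, minus), chr11:98325415-98329648 (Neurod2, minus), chr6:64729125-64731245 (Atoh1, plus), chr16:91269772-91271933 (Olig1, plus), chr16:91225457-91228677 (Olig2, plus) and chr10:19356533-19358604 (Olig3, plus) of mm10 (GRCm38, GENCODE M21). Olig1 and Olig2 are neighbours on chromosome 16. The counting did not use strand, and exons of Neurog3 share 273 bases with Fam241b, those of Neurod1 share 355 bases with Cerkl or Gm26755, and those of Olig1 share 157 bases with Gm15966, so reads there cannot be told apart.

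The 250 bases before the start site are printed for 5 of the 9 genes. Peaks described next lay over each of these stretches in 28 to 50 conditions. Neurog3, Atoh1 and Olig3 are shown as the genes whose RNA rose in Parental cells, Neurod2 as the gene with the most peaks and Neurog1 as the richest in CG. Capitals mark each CG dinucleotide, the base pair step that CpG islands and many Polycomb targets are rich in. The windows read 5′ to 3′ along the gene and lie, in RefSeq's GRCm38.p6, at chr10:62132840-62133089 (Neurog3, plus), chr6:64728875-64729124 (Atoh1, plus), chr10:19356289-19356538 (Olig3, plus), chr11:98329646-98329895 (Neurod2, minus) and chr13:56252181-56252430 (Neurog1, minus).
Neurog3: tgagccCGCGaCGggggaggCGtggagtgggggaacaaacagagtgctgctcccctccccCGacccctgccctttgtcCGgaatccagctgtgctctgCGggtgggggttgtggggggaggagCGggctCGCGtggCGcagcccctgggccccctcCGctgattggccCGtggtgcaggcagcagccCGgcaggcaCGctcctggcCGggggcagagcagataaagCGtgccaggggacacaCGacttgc
Atoh1: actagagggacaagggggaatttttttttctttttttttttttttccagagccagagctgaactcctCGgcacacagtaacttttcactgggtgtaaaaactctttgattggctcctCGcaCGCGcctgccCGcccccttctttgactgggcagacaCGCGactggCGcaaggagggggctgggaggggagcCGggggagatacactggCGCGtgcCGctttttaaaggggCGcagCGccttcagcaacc
Olig3: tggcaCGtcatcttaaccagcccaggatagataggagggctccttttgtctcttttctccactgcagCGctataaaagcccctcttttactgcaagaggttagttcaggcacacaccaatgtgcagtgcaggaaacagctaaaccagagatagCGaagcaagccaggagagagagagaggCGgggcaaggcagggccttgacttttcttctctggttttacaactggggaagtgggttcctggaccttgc
Neurod2: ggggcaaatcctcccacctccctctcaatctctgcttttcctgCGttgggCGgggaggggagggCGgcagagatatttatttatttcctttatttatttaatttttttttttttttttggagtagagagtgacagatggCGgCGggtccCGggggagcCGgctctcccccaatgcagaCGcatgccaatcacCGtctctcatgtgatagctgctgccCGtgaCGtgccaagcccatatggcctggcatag
Neurog1: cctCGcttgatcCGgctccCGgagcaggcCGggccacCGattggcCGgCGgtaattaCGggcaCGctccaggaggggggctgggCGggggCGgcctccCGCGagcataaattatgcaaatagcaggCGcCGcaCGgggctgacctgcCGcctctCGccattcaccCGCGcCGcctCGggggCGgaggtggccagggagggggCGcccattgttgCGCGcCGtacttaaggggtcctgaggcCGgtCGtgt

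RefSeq gave such a window for 8 of the 9 genes, all but Olig1. The number of CG dinucleotides was 29 in Neurog1, 22 in both Neurod1 and Olig2, 18 in Neurog3, 14 in Atoh1, 11 in Neurod2, 8 in Neurog2 and 4 in Olig3, beside a median of 6 over the 32841 windows of that length in the table. As many CG as in Neurog1 were held by 6.78% of all windows, and as many as in Olig3 by 62.2%, so the members spanned from CG-rich to ordinary starts. The E-box letters CANNTG, which read the same on both strands, occurred 3 times in the Neurod2 window and once each in those of Neurog3, Neurod1 and Olig3. They were not found in the windows of Neurog1, Neurog2, Atoh1 and Olig2, while 66.2% of all windows hold at least 1. Of 65 conditions, each a combination of cells, treatment and antibody, 50 had a peak over the whole Neurog1 window and 43 over that of Neurog2. The number was 39 for both Neurog3 and Olig2, 38 for Neurod2, 30 for Atoh1, 28 for Olig3 and 23 for Neurod1.

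In untreated Parental cells all 9 genes had peaks of the core subunits and marks of both Polycomb complexes. RING1B peaks lay within 2.5 kb of all 9, beside 19.5% of the 21924 protein-coding genes. All 9 also had peaks of PCGF2 (18.7% of protein-coding genes) and CBX7 (18.9%), subunits of canonical PRC1, and of the PRC1 mark H2AK119ub1 (26.3%). The same held for SUZ12 (31.4%), a core subunit of PRC2, for its mark H3K27me3 (30.5%), for MTF2 (54.6%) and EPOP (26.2%), accessory subunits of the PRC2.1 form, and for JARID2 (34.8%), an accessory subunit of PRC2.2. AEBP2, the other subunit of PRC2.2, had peaks at 7 of the 9, all but Neurod1 and Olig1, beside 4.60% of protein-coding genes. For subunits of variant PRC1, PCGF6 had peaks at 7 genes, all but Neurog3 and Neurod1 (30.3%), and RYBP at 6, all but Neurog3, Neurod1 and Olig3 (13.0%).

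The score of a peak is −log10 of the p-value that the peak caller gave it over input, and no listed peak scores under 10. Scores depend on the depth of a library, so they are compared here only between genes of the same list. In the RING1B list of untreated Parental cells the highest score was 352 at Neurod2, and it was 240 at Olig2, 155 at Neurog1, 120 at Olig3, 113 at Atoh1, 111 at Neurog2, 83.6 at Olig1, 49.7 at Neurog3 and 31.3 at Neurod1. Neurod2 headed this order and Neurod1 closed it. The SUZ12 list placed Neurod2 first (1211), followed by Olig2 (789), and again Neurod1 last (148). In the CBX7 list the score was 1670 at Neurod2, 622 at Olig2 and 58.1 at Neurod1. The H2AK119ub1 list differed, with Neurog1 (87.2) above Neurod2 (66.6) and Neurod1 lowest (21.8). Of the 65 lists with a peak at any of the 9 genes, Neurod2 scored highest of the 9 in 59, Neurog1 in 5 and Olig1 in 1.

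**Figure D1:**
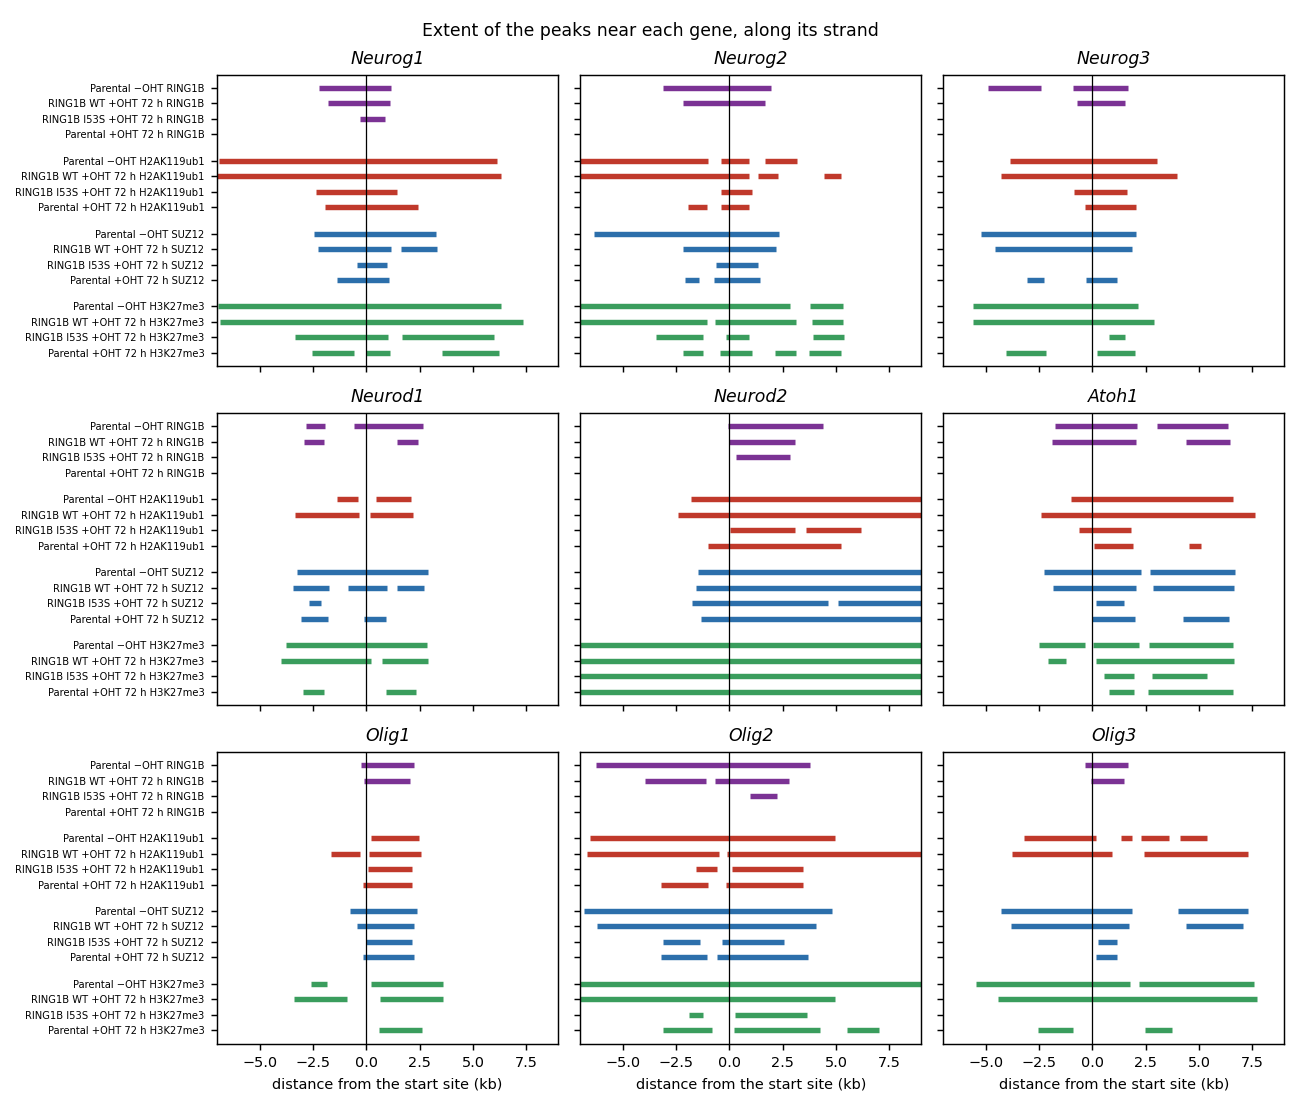
Extent of each peak near the 9 genes, with distance from the start site (kb, along the gene's strand) on the x axis and 1 line per list of RING1B, H2AK119ub1, SUZ12 or H3K27me3 on the y axis, drawn from -7 to 9 kb so that longer peaks are cut off. In untreated Parental cells each gene has a bar for every antibody, and in Parental +OHT cells none has a RING1B bar.

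Peaks were broadest at Neurod2, an activator of cortical neuron differentiation. Over all its listed peaks the median length was 6690 bp and the longest peak was 34019 bp. Olig2 followed with a median of 5755 bp, and the shortest median, 1609 bp, belonged to Neurod1. A peak lay over the start site in 56 of 61 lists with a peak at Neurog1, in 42 of 45 at Neurog3, in 46 of 55 at Neurog2 and in 45 of 55 at Olig2. The numbers were 44 of 65 lists at Neurod2, 27 of 39 at Neurod1, 36 of 55 at Atoh1, 36 of 46 at Olig1 and 33 of 43 at Olig3. At Neurod2 the RING1B peak of I53S +OHT cells began 288 bp downstream of the start and ended at 2855 bp, inside the gene.

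The first comparison asked at which genes Polycomb peaks were still listed once RING1B was lost or lacked activity. Conditions are set beside untreated Parental cells, as the share of genes with a peak there that also had one after OHT. For JARID2 and MTF2 the other lines had −OHT lists of their own, with peaks at all 9 genes. The JARID2 lists held 14778 peaks in Parental, 7446 in RING1B WT and 6563 in I53S −OHT cells. The MTF2 lists held 24485, 13559 and 11623 in that order. The shares kept of these 2 antibodies thus depend on a larger baseline list. With RING1B WT +OHT, all 9 genes kept the peaks of RING1B (71.7% of protein-coding genes with an untreated peak kept it), PCGF2 (73.6%), H2AK119ub1 (92.4%), H3K27me3 (87.3%), SUZ12 (79.9%), MTF2 (59.0%), JARID2 (62.2%) and EPOP (89.1%). CBX7 was kept at 8 of 9, all but Neurod1 (52.4%), AEBP2 at 7 of 7 (82.3%), PCGF6 at 7 of 7 (79.3%) and RYBP at 4 of 6 (35.1%).

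In Parental +OHT cells no RING1B, PCGF2 or AEBP2 peak was listed at any of the 9 genes, where 5.36%, 1.41% and 0.793% of protein-coding genes kept theirs. A CBX7 peak remained only at Neurod2, at chr11:98326984-98329142 with a score of 14.7, in a list of 59 peaks that kept 1.23% of genes. PRC2 peaks remained, with SUZ12 (67.5% of genes kept), H3K27me3 (70.2%) and MTF2 (50.0%) at 9 of 9. EPOP stayed at 7 (41.0%), with none at Olig1 and Olig3, and JARID2 at 6 (16.1%), with none at Neurod1, Olig1 and Olig3. Peaks of H2AK119ub1 were still listed at 7 of 9, all but Neurod1 and Olig3, beside 63.9% of genes. The peak lists carry no spike-in scaling, so a listed peak does not give the amount of the mark. PCGF6 stayed at 4 of 7 (58.5%).

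In RING1B I53S +OHT cells RING1B peaks were listed at Neurog1, Neurod2 and Olig2, 3 of the 9 genes, beside 11.6% of protein-coding genes that kept theirs. Their scores were 52.5 at Neurod2, 22.6 at Olig2 and 17.1 at Neurog1, the same 3 genes that had led the untreated list. PCGF2 was kept at 5 of 9 (12.7%), namely Neurog1, Neurog2, Neurod2, Atoh1 and Olig2, and CBX7 only at Neurod2 (0.675%), at chr11:98327179-98329326 with a score of 15.7. PCGF6 stayed at 5 of 7 (35.1%) and RYBP at 2 of 6 (23.2%), Neurog1 and Neurod2. SUZ12 was kept at 8 of 9, all but Neurog3 (43.4%), EPOP at 8, again all but Neurog3 (42.6%), and H3K27me3 at 6 (58.3%), with none at Neurod1, Olig1 and Olig3. H2AK119ub1 peaks were listed at 7 of 9, all but Neurod1 and Olig3 (42.2%), and AEBP2 peaks at none of 7 (0.793%). A listed peak does not give an amount. From ChIP-seq signal at RING1B targets, the study reported that these cells lost H2AK119ub1 completely, had less H3K27me3 and had SUZ12 strongly displaced.

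MTF2 and JARID2 had 2 libraries each in the RING1B WT and I53S lines at 72 h, and the pairs differed in I53S +OHT cells. MTF2 was at 7 genes in replicate 1 of I53S +OHT cells (12.6% of protein-coding genes) and at 9 in replicate 2 (28.1%), so that 9 of 9 counted as kept in either (51.6% of protein-coding genes with an untreated peak), and Neurog3 and Olig3 were missing from replicate 1. JARID2 was at 5 genes in replicate 1 (4.36%) and at 3 in replicate 2 (1.8%), so that 5 of 9 counted as kept (12.7%). Neurog1, Neurod2 and Atoh1 had a JARID2 peak in both I53S +OHT libraries. At 48 h of OHT, MTF2 was at 9 of 9 genes in Parental (31.6% of protein-coding genes), RING1B WT (33.5%) and I53S cells (32.7%), and JARID2 at 9 of 9 in Parental (11.9%) and RING1B WT (19.9%) cells and at 6 in I53S cells (4.22%).

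**Figure D2:**
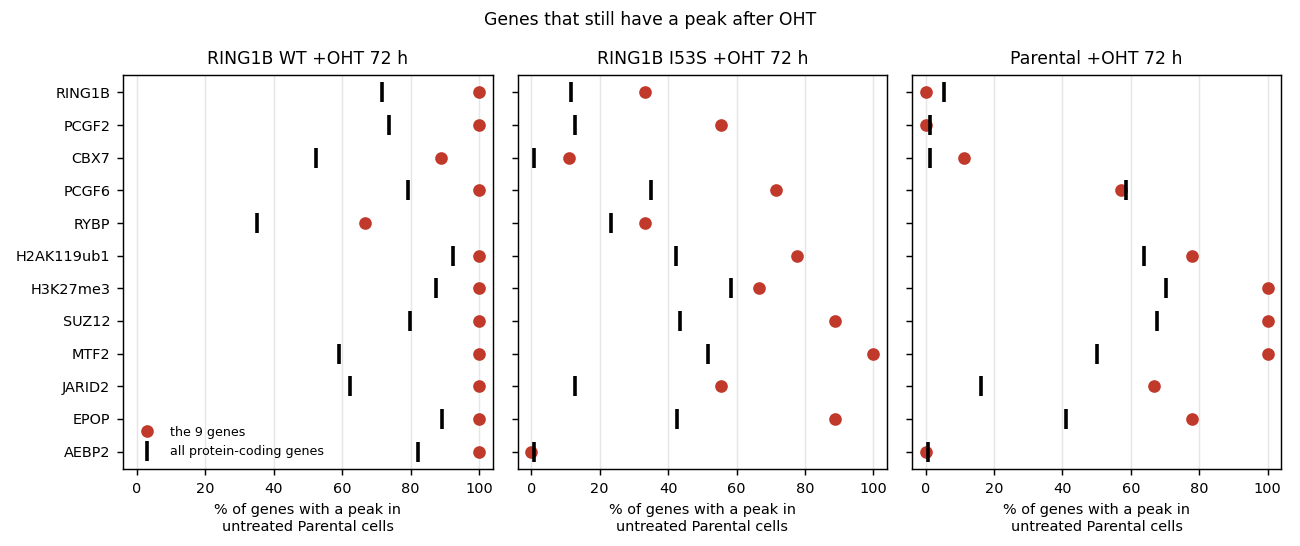
Share of genes with a peak in untreated Parental cells that still had one after 72 h of OHT (x axis, %), for each antibody (y axis) in RING1B WT, RING1B I53S and Parental cells, with circles for the 9 bHLH genes and bars for all protein-coding genes. RING1B falls from 9 of 9 genes in RING1B WT to 3 of 9 in I53S and 0 of 9 in Parental cells, while SUZ12 stands at 9, 8 and 9 of 9. A peak that is still listed does not give the amount bound.

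Gene by gene, 11 antibodies (all but RYBP) were profiled in the same 4 settings. Neurod2 had peaks of 11 in untreated Parental cells, 11 in RING1B WT +OHT, 10 in I53S +OHT and 8 in Parental +OHT cells. Neurog1 had 11, 11, 9 and 7 in that order, and Olig2 the same numbers. Neurog2 had 11, 11, 8 and 6, and Atoh1, the determinant of cerebellar granule neurons and inner ear hair cells, had 11, 11, 7 and 6. The numbers were lower at Neurog3 (10, 11, 3 and 6), at Olig1 (10, 10, 5 and 5), at Neurod1 (9, 9, 3 and 4) and at Olig3 (11, 11, 3 and 3). Neurod2, Neurog1 and Olig2 were thus the genes with the most peaks left in I53S +OHT cells, and Neurog3, Neurod1 and Olig3 had the fewest.

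In MTF2 KO cells, in lists of their own depth, SUZ12 peaks were at 9 of 9 genes in untreated MTF2 KO Parental cells (12.2% of protein-coding genes) and at 9 of 9 in RING1B WT +OHT cells (13.6%). They were at 3 genes in Parental +OHT cells (5.57%), namely Neurog1, Neurod2 and Atoh1, and only at Neurod2 in I53S +OHT cells (2.18%). The shares of protein-coding genes that kept their MTF2 KO SUZ12 peak were 83.9% in RING1B WT, 24.3% in Parental and 8.49% in I53S cells. H3K27me3 in MTF2 KO cells was at 5 genes in untreated Parental cells (13.8%), at 7 in RING1B WT +OHT (8.36%), at Neurog1 and Neurod2 in I53S +OHT (4.18%) and at Neurod2 alone in Parental +OHT cells (1.04%). The 4 input lists of this experiment had no peak at any of the 9.

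**Figure D3:**
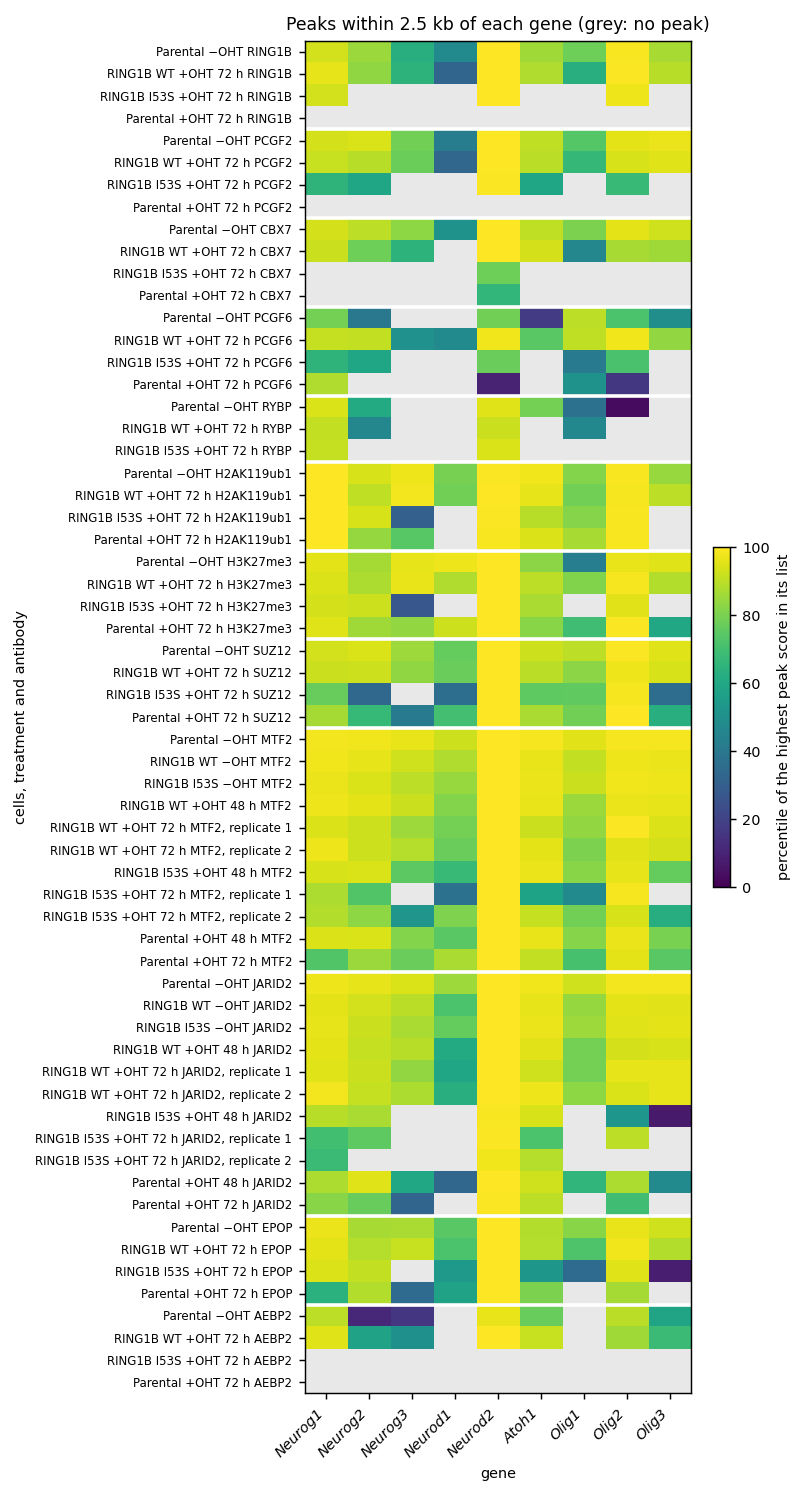
Percentile of each gene's highest peak score among all peaks of the same list (colour, 0 to 100; grey for no peak), with the 9 genes on the x axis and cells, treatment and antibody on the y axis. Neurod2 is at the top of most lists, and the I53S +OHT and Parental +OHT lines are grey for most genes under RING1B, CBX7 and AEBP2.

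Across all 65 conditions a peak was listed for Neurod2 in 61, Neurog1 in 57, Neurog2 and Olig2 in 52, Atoh1 in 51, Neurog3 and Olig1 in 43, Olig3 in 41 and Neurod1 in 36. That is 436 of the 585 pairs of gene and condition.

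RNA of the 9 genes was scarce in every group, and only Olig1 was well above the rest. Per kb of exon, Olig1 stood at 8.44 ± 2.40 CPM per kb (SD, n = 2 in each group) in untreated Parental cells, followed by Neurog1 at 0.595 ± 0.116, Neurod1 at 0.434 ± 0.358, Olig2 at 0.244 ± 0.208, Atoh1 at 0.115 ± 0.163 and Olig3 at 0.0888 ± 0.0412, all in CPM per kb. Neurog2, Neurog3 and Neurod2 had 0 counts in both of these libraries, where 3 counts over the group are the upper limit that 0 allows. The gap between Olig1 and the others exceeded their spread, whereas from Neurog1 down each neighbour in the order lay within the spread of the next. In Eed fl/fl cells Olig1 was at 19.4 ± 0.56 CPM per kb without OHT and at 19.3 ± 9.13 with OHT. The Eed fl/fl libraries are from another line and were fitted separately.

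**Figure D4:**
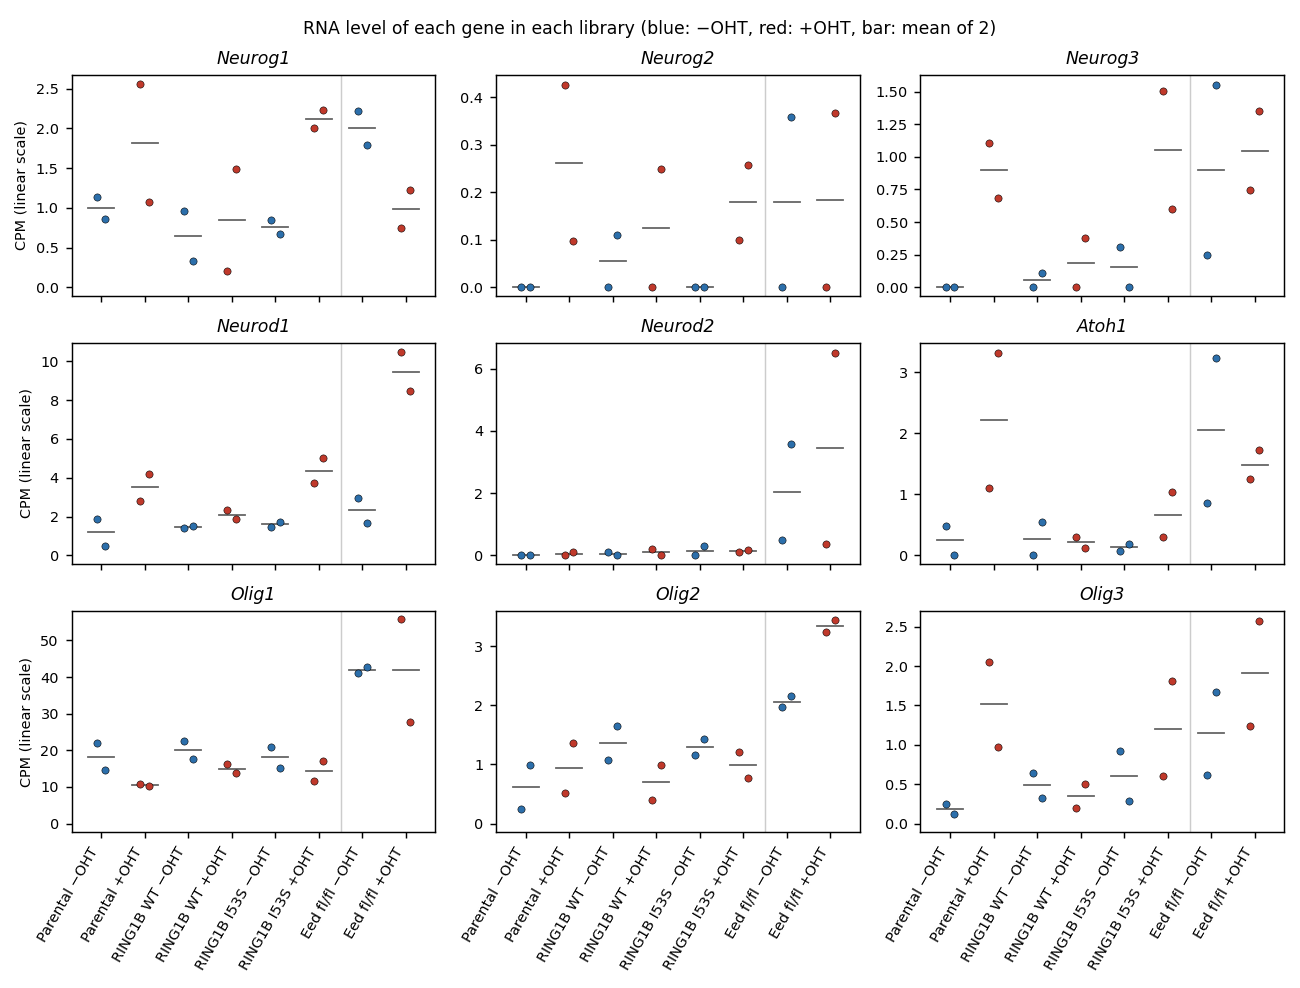
RNA level of each of the 9 genes (y axis, CPM on a linear scale of its own in each panel) in each of the 16 libraries (points; blue −OHT, red +OHT), with a bar for the mean of 2 libraries and a vertical line before the separately fitted Eed fl/fl cells. Atoh1, Olig3, Neurog3 and Neurod1 have both Parental +OHT points above both Parental −OHT points, and Olig1 has both below. Of all genes tested, 38.1% lie above and 32.7% below in this way.

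The RNA comparison asked which of these genes changed when RING1B was deleted. A gene was called when edgeR's quasi-likelihood test gave a Benjamini-Hochberg adjusted p under 0.05 over all 18154 genes tested and the log2 fold change was at least 1.5 in size. In Parental cells Neurog3, Atoh1 and Olig3 were called higher with OHT and none of the 9 was called lower, beside 15.1% of all genes tested called higher and 1.83% called lower. These 3 genes reached the low-count filter only in libraries with OHT, so that a tested member of this kind had to differ and their number carries no weight beyond their own values. Of the 9 genes, 7 were tested.

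Neurog3, which specifies the endocrine cells of the pancreas and gut, had 0 and 0 counts in the Parental −OHT libraries and 13 and 7 in the Parental +OHT libraries. The groups did not overlap, as for 38.1% of all genes tested toward higher and 32.7% toward lower in Parental cells. The level with OHT was 7.06-fold over the untreated group set to a floor of 3 counts. This fold leaves out the counting error of the treated group. The fitted log2 fold change of 6.24 (SE 1.84, edgeR adjusted p = 0.0131) depends on the prior count. Atoh1 had 6 and 0 counts without OHT and 13 and 34 with OHT, again without overlap, and the untreated libraries were both below the treated ones. Its mean rose from 0.244 to 2.21 CPM, a log2 fold change of 2.92 (SE 1.01, edgeR adjusted p = 0.0298). Olig3, a factor of dorsal spinal cord and hindbrain progenitors, had 3 and 1 counts without OHT and 24 and 10 with OHT, with no overlap. It rose from 0.184 to 1.51 CPM, a log2 fold change of 2.90 (SE 0.914, edgeR adjusted p = 0.0184). Each of these calls was lost when certain single libraries were left out, and over all alternatives the adjusted p ran from 0.00206 to 0.0955 for Neurog3, from 0.00355 to 0.321 for Atoh1 and from 0.00667 to 0.189 for Olig3. The Neurog3 call was lost without either Parental −OHT library (adjusted p = 0.0955 and 0.0685) or without Parental +OHT replicate 1 (0.075). The Atoh1 call was lost under DESeq2 (adjusted p = 0.0554) and by edgeR without Parental −OHT replicate 2 (0.21) or Parental +OHT replicate 2 (0.321), and the Olig3 call without either Parental −OHT library (0.0757 and 0.122) or Parental +OHT replicate 1 (0.189).

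Neurod1, which acts in neuronal and pancreatic beta cell differentiation, had 23 and 4 counts without OHT and 33 and 43 with OHT in Parental cells. The treated libraries were both above the untreated ones, and the mean went from 1.18 to 3.51 CPM. The log2 fold change of 1.47 (SE 0.519, edgeR adjusted p = 0.0336) lay just under the fold threshold. DESeq2 called it higher (log2 fold change 1.51, adjusted p = 0.0444), as did edgeR without Parental −OHT replicate 1 (2.76, adjusted p = 0.00905), and over all alternatives its adjusted p ran from 0.00905 to 0.299. Olig1 went the other way, with 269 and 118 counts without OHT and 127 and 105 with OHT. On the CPM scale its groups did not overlap and it went from 18.3 to 10.5 CPM, a log2 fold change of -0.80 (SE 0.28, edgeR adjusted p = 0.0323), which is below the fold threshold.

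Neurog1 had 14 and 7 counts without OHT and 30 and 11 with OHT in Parental cells, and Olig2 had 3 and 8 against 6 and 14. Both overlapped between groups, with log2 fold changes of 0.84 (SE 0.703, edgeR adjusted p = 0.383) for Neurog1 and 0.68 (SE 0.786, edgeR adjusted p = 0.538) for Olig2. Neurog2 did not reach the filter, with 0 and 0 counts without OHT and 5 and 1 with OHT. That is 2.12-fold over the same floor, again without the counting error of the treated group. Neurod2, the gene with the most and the broadest peaks, had a total of 1 count in the 4 Parental libraries.

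In RING1B I53S cells none of the 9 genes was called by edgeR, where 12.8% of all genes were called higher and 1.04% lower. DESeq2 called 0 as well, and 2 of the 7 tested had an unadjusted p under 0.05. Neurod1 had 19 and 18 counts without OHT and 37 and 58 with OHT, so that the groups did not overlap. Its log2 fold change was 1.45 (SE 0.495, edgeR adjusted p = 0.035), past the test and under the fold threshold, and it was called without I53S +OHT replicate 1 (1.65, adjusted p = 0.0445), within a range of 0.0249 to 0.148 over all alternatives. Neurog3 had 4 and 0 counts without OHT and 15 and 7 with OHT, with a log2 fold change of 2.55 (SE 1.08, edgeR adjusted p = 0.0901). Its treated libraries were both above the untreated ones. Atoh1 had 1 and 2 counts against 3 and 12, with a log2 fold change of 2.29 (SE 1.22, edgeR adjusted p = 0.179), and Neurog1 had 11 and 7 against 20 and 26, with 1.46 (SE 0.709, edgeR adjusted p = 0.138). Neither overlapped between groups in CPM, and in I53S cells 31.5% of all genes tested did not overlap toward higher and 25.8% toward lower. Olig3 (12 and 3 against 6 and 21 counts, 0.95) and the oligodendrocyte genes Olig1 (271 and 158 against 117 and 200 counts, -0.32) and Olig2 (15 and 15 against 12 and 9 counts, -0.39) had smaller log2 differences and adjusted p from 0.388 to 0.724.

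In RING1B WT cells none of the 9 genes was called by edgeR, 0 of the 7 tested had an unadjusted p under 0.05 and DESeq2 called 0, beside 1.34% of all genes called higher and 0.0386% called lower. Neurod1 had 13 and 14 counts without OHT and 23 and 15 with OHT, a log2 fold change of 0.52 with an adjusted p of 0.701 by edgeR. Atoh1 (0 and 5 against 3 and 1 counts), Olig3 (6 and 3 against 2 and 4) and Neurog3 (0 and 1 against 0 and 3) stayed at a few counts in all 4 libraries, and Olig1 was at 212 and 161 counts without OHT and at 161 and 110 with OHT.

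**Figure D5:**
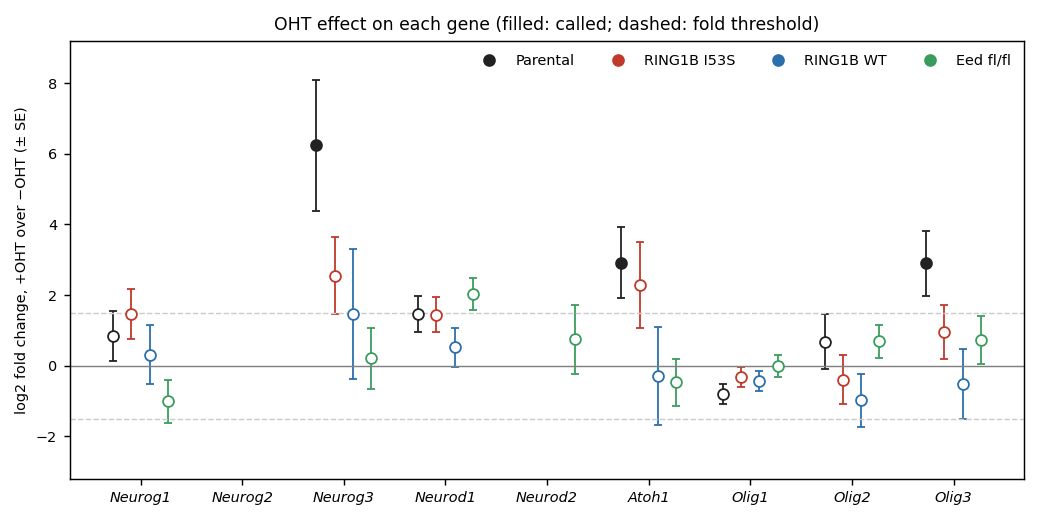
Log2 fold change of each gene with OHT over without OHT (y axis, points with SE from edgeR) in Parental, RING1B I53S, RING1B WT and Eed fl/fl cells, with filled points for called genes and dashed lines at the fold threshold of 1.5; Neurog2, and Neurod2 outside Eed fl/fl cells, were not tested. The filled points are Neurog3, Atoh1 and Olig3 in Parental cells, and the Neurod1 points of Parental, I53S and Eed fl/fl cells lie at 1.47, 1.45 and 2.02.

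Lines were then compared directly with OHT, in comparisons that share these libraries. Between RING1B I53S and Parental cells none of the 9 was called, 0 had an unadjusted p under 0.05 by edgeR and DESeq2 called 0, beside 0.16% of all genes called in either direction. The difference of the OHT effect between I53S and Parental cells was called for no member (0 with an unadjusted p under 0.05, 0 by DESeq2) and for 0% of all genes by edgeR, which does not show that the 2 lines responded alike. RING1B I53S against RING1B WT gave 0 called by edgeR (2 with unadjusted p under 0.05, 0 by DESeq2), beside 6.02% of all genes higher and 0.6% lower. The log2 differences were 2.53 for Neurog3 (edgeR adjusted p = 0.155), 1.82 for Olig3 (0.177), 1.57 for Atoh1 (0.406, with overlapping groups), 1.38 for Neurog1 (0.225) and 1.05 for Neurod1 (0.166). In RING1B WT against Parental cells Atoh1 was called lower, with a log2 difference of -3.25 (SE 1.07, edgeR adjusted p = 0.0406), beside 7.62% of all genes called lower and 1.06% higher. Atoh1 reached the low-count filter only in Parental +OHT and I53S +OHT libraries, so this call carries no weight beyond its values. Its counts were 3 and 1 in RING1B WT and 13 and 34 in Parental cells, and DESeq2 did not call it, nor did edgeR without any single library of these 2 groups. Olig3 (-2.13, edgeR adjusted p = 0.091) and Neurog3 (-2.32, edgeR adjusted p = 0.179) were not called. The OHT effect in RING1B WT minus that in Parental cells gave 0 called by edgeR or DESeq2 and 1 with an unadjusted p under 0.05, beside 0.435% of all genes called higher and 1.1% lower. Without OHT no member was called between lines by edgeR or DESeq2, and 0 had an unadjusted p under 0.05, beside 0.154% (I53S against Parental) and 0.0606% (RING1B WT against Parental) of all genes called.

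In Eed fl/fl cells, where OHT removes EED in place of RING1B, 8 of the 9 genes were tested and edgeR and DESeq2 both called 0, with 1 at an unadjusted p under 0.05. Only 0.00795% of the 25170 genes tested were called higher or lower here. Neurod1 had 24 and 14 counts without OHT and 84 and 69 with OHT, with both treated libraries far above the untreated ones. It went from 2.32 to 9.46 CPM, a log2 fold change of 2.02 (SE 0.445, edgeR adjusted p = 0.29), and was called without Eed fl/fl −OHT replicate 1 (2.49, adjusted p = 0.0223), within a range of 1.631e-05 to 0.547 over all alternatives. Neurod2 was detected in these cells, at 4 and 30 counts without OHT and 3 and 53 with OHT, so that its 2 libraries of a group differed more than the groups. Olig2 (16 and 18 against 26 and 28 counts, log2 fold change 0.69) and Neurog1 (18 and 15 against 6 and 10 counts, -1.01) did not overlap between groups but had adjusted p of 0.835 and 0.833 by edgeR. Of all genes tested in these cells, 22.1% did not overlap toward higher and 15.5% toward lower.

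Genes around these factors in the same pathway were also called with OHT in Parental cells, where 15.1% of all genes tested were called higher and 1.83% lower. Of 11 other neural bHLH genes 3 were tested and 2 were called higher, Atoh8 with a log2 fold change of 5.69 (edgeR adjusted p = 0.000216) and Ptf1a with 3.86 (0.0303). Among 11 partners and inhibitors of bHLH factors, 3 rose and 1 fell. Id2 rose by 4.22 and Id1 by 2.65 on the log2 scale (edgeR adjusted p = 2.495e-08 and 2.256e-06), both encoding proteins that sequester E-protein partners, as did Hes5, a Notch-induced repressor of proneural genes, by 5.01 (0.00198). Id4 fell by 2.15 (0.000366). In I53S cells (12.8% of all genes higher, 1.04% lower) the counts were 3 of 3 other bHLH genes higher, and 3 higher and 1 lower among partners and inhibitors. In RING1B WT cells (1.34% higher, 0.0386% lower) they were 0, and 1 higher (Id2). All 11 other bHLH genes together summed to 0.371 to 1.47 CPM in Parental −OHT and 0.959 to 1.00 CPM in I53S −OHT libraries. The low-count filter lay at 1 CPM, so the 3 tested genes passed it largely through libraries with OHT. Their number called therefore carries no weight beyond their own values.

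Of 15 genes known to act downstream of proneural factors, 11 were tested in Parental cells, against the same 15.1% of all genes higher and 1.83% lower. A total of 6 rose, among them Ebf2 (6.30, edgeR adjusted p = 3.092e-06), Map2 (1.77, 0.000217) and Rbfox3 (1.53, 0.000968), while Tubb3 (-1.77) and Stmn2 (-1.67), which encode neuronal cytoskeletal proteins, fell. Of 12 oligodendrocyte lineage genes 11 were tested and 7 rose, among them Sox9 (6.36), Pdgfra (4.14) and Mbp (2.498), and 6 of 7 neural progenitor genes were tested and rose, with Pax3 at 5.82 and Nes at 2.21 on the log2 scale and Zic1 going from 0 to 5.17 CPM. Pdgfra is a primitive endoderm marker as well. Zic1 had 0 counts in the Parental −OHT and I53S −OHT libraries, so it passed the low-count filter only through other groups. Sox3 had 0 counts in the Parental −OHT libraries too. All 7 neural progenitor genes together summed to 6.8 to 9.37 CPM there, beside a filter at 1 CPM. Genes of these lists could pass the filter through libraries with OHT alone. Their numbers called therefore carry no weight beyond their own values. In I53S cells 6, 8 and 6 genes of these lists rose (12.8% of all genes), and in RING1B WT cells 1, 0 and 1 (1.34%). In Eed fl/fl cells 0 genes of any of these lists were called.

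Markers of other cell types moved in the same libraries. In Parental cells 15.1% of all genes tested were called higher with OHT and 1.83% lower. Primitive endoderm markers summed to 432 to 602 CPM in Parental −OHT and 813 to 820 CPM in Parental +OHT libraries, with 6 of 7 called higher. Of these, Gata6 and Foxa2 had 0 counts in the Parental −OHT libraries, so they passed the low-count filter only through other groups. Trophoblast markers went from 165 to 197 CPM to 436 to 444 CPM, with 5 of 8 called higher (7 tested). Fibroblast markers went from 11.9 to 14.01 CPM to 45.7 to 48.4 CPM, with 2 of 7 called higher (3 tested), and Lum and Dcn stood at 0 in the Parental and I53S +OHT libraries. The 10 pluripotency markers summed to 4233 to 4649 CPM without OHT and 2384 to 2437 CPM with OHT, and 2637 to 2740 CPM in I53S +OHT and 4114 to 4137 CPM in RING1B WT +OHT cells. Of these 10, 2 were called lower and 1 higher with OHT in Parental cells, and 1 lower and 0 higher in I53S cells (1.04% of all genes lower, 12.8% higher). The other lists also rose with OHT in RING1B WT cells, where 1.34% of all genes tested were called higher. There primitive endoderm markers went from 553.6 to 635 CPM to 753.3 to 785.7 CPM, with 0 called higher. Trophoblast markers went from 160.4 to 171.3 CPM to 219.2 to 240.3 CPM, with 2 called higher. Fibroblast markers went from 10.09 to 11.98 CPM to 20.63 to 20.67 CPM, with 0 called higher. The part of these shifts in the changes of the 9 genes was not tested.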

How the data were processed

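Peak lists and RNA-seq counts were used as deposited. Per the submitters' processing notes and the study's methods, the authors aligned ChIP-seq reads to mm10 with Bowtie 1.2.2 and called peaks on each library against an E14 input with MACS2 2.1.1. The deposited peak scores are −log10 p-values. The authors aligned SMART-seq2 reads with STAR 2.7 and obtained the deposited raw counts per gene name with featureCounts over GENCODE M21 exons, without strand. Tables of the authors' own comparisons (DESeq2 1.20 fold changes and p-values) and their normalized tables were not used.

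The 9 genes and the other gene lists were chosen with earlier results of these data known. The named genes were all members, the deleted genes, and from each neural list the 3 genes with the smallest adjusted p among those called higher with OHT in Parental cells and any called lower. Counts were tested in edgeR 4.0.16 (TMM, filterByExpr, quasi-likelihood fit) in R 4.3.3, with 1 fit for the 12 libraries (6 groups) of the RING1B lines and the 4 Eed fl/fl libraries apart, 11 comparisons in all, Benjamini-Hochberg over all genes tested, and DESeq2 1.42.0 as an alternative. The test was checked on simulated data. No pair of replicates agreed within sampling noise, with chi-square per gene from 6.05 to 24.4. A single count was worth 0.0785 to 0.144 CPM, and intervals and floors cover counting error only. Of 74 peak lists, 70 were ChIP and 4 input, and 1 ChIP list (RYBP) whose title gives no clear treatment entered no comparison. Lists of 2 libraries of the same condition were merged. Alternatives were other extensions, a score minimum, other filters, normalizations and fits, and leaving out each replicate.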

Additional observations from a re-analysis of the deposited data

Results flagged for a closer look

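A single value stood outside the comparisons. The RYBP list of Parental cells whose label does not give a clear treatment held a peak at 1 of the 9 genes, Neurod2, with a score of 11.99 (chr11:98327037-98328852), in a list of 61 peaks that touched 0.269% of protein-coding genes. It drew attention because the list enters no comparison. The input lists had no peak there, but they belong to H3K27me3 in MTF2 KO cells and are no control for this list.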

How the results depend on the processing

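The number of members called changed with the processing as follows, with the share of all genes given only for the setting without a fold threshold. For OHT in Parental cells (3 called), it was 0 with at least 10 counts required in every library, a filter that only 1 member passed. It was 2 (Atoh1 and Olig3) when only the groups of the comparison were fitted, where Neurog3 did not pass the filter. With no fold threshold it was 5, as Neurod1 (higher) and Olig1 (lower) were added, beside 21.9% of all genes tested higher and 12.4% lower. It was 0 to 2 when single libraries were left out. DESeq2 also called 3, namely Neurog3, Neurod1 and Olig3, without Atoh1 (adjusted p = 0.0554). For RING1B WT against Parental with OHT (1 called, Atoh1), it was 0 under DESeq2, 0 with at least 10 counts in every library, 2 when only the groups of the comparison were fitted (Atoh1 and Olig3), and 0 to 0 when single libraries were left out. For OHT in I53S cells (0 called) it was 1 with no fold threshold (Neurod1, higher, beside 18.4% of all genes tested higher and 8.37% lower) and 0 to 1 without single libraries. For OHT in Eed fl/fl cells (0 called) it was 0 to 1 without single libraries. The cause was not tested.

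With the replicate number as a block, the Eed fl/fl count was 1 (Neurod1, log2 fold change 2.04, adjusted p = 1.631e-05), and the block changed no other count by over 1.5 times. The numbers are not known to pair the libraries. The difference in log2 CPM between replicates 1 and 2 was correlated over genes between pairs of groups. The correlation was 0.063 to 0.238 within and between the 3 RING1B lines, and 0.459 between Eed fl/fl −OHT and +OHT cells.

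Log2 fold changes that turned sign were small or rested on few counts. Olig1 went from -0.0454 to 0.0262 (I53S against RING1B WT) and from -0.0048 to 0.0209 (Eed fl/fl) with at least 10 counts in every library. Without single libraries the ranges were -0.17 to 1.84 for Olig2 in Parental cells, -0.0667 to 2.03 for Olig3 in I53S cells, and, in RING1B WT cells, -1.64 to 1.27 for Neurog1, -2.48 to 3.94 for Neurog3, -1.27 to 4.28 for Atoh1 and -1.23 to 0.041 for Olig3. They were -0.36 to 0.21 for Olig1 and -0.0294 to 1.25 for Olig2 in I53S against RING1B WT, -1.18 to 0.41 for Olig2 in RING1B WT against Parental, and, in Eed fl/fl cells, -0.56 to 1.97 for Neurog3, -2.41 to 2.72 for Neurod2, -1.11 to 0.72 for Atoh1 and -0.63 to 0.41 for Olig1.

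The 436 pairs of gene and condition with a peak were 435 within 2.5 kb of a start site, 428 with no extension, 441 within 10 kb, 369 with a score of at least 20, 407 with at least 50% of the peak inside, and 434 to 436 without single lists. Low counts limit all genes but Olig1, and peak lists of unequal depth limit what an absent peak shows.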

Other observations

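Over the 12 libraries of the RING1B lines, the 2 genes with the level pattern most like each tested member (Pearson r of log2 CPM, given as a description with no p, since the libraries share groups and depth) were Otud7a (r = 0.932) and Trabd2b (0.917) for Neurog1, Flrt2 (0.972) and Neto2 (0.969) for Neurog3, and Nuak1 (0.963) and Paqr4 (0.947) for Neurod1. They were Tnfaip8l2 (r = 0.964) and Cutal (0.914) for Atoh1, Rhbdd3 (0.951) and Tpgs1 (0.945) for Olig1, Nudt9 (0.868) and Ajuba (0.862) for Olig2, and Gm17586 (0.924) and Mtnr1a (0.911) for Olig3.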
